A study of Homo sapiens with 9 samples.

Results

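Methylarginines are made and removed by the genes described here: the protein arginine methyltransferases PRMT1, PRMT2, PRMT3, CARM1, PRMT5, PRMT6, PRMT7 and PRMT9, and the dimethylarginine dimethylaminohydrolases DDAH1 and DDAH2. The set was a list of 10 gene symbols, looked up in the gene annotation of the array. It was selected on results of these arrays, namely the log2 intensity of DDAH1, which moved in opposite directions with the 2 siRNAs. Of the 10 genes, 9 were measured among the 17687 genes of the array, each by 1 transcript cluster (the probe group that stands for a gene), and DDAH2 was not analysed here. Expression was measured with Clariom S arrays in PC9, a human lung adenocarcinoma cell line, and RNA was taken 96 h after siRNAs had been transfected (15 nM). All 9 arrays shared the cell line, the dose and the time, and they formed 3 groups of 3. The groups were siControl (a negative control siRNA), siALKBH5#1 and siALKBH5#3, whose siRNAs target ALKBH5, an RNA demethylase for N6-methyladenosine, with unlike sequences. All samples came from a single cell line with a transient knockdown. The labels call the arrays of a group biological replicates but do not say how the cultures were kept apart, so the p-values cover the spread between these samples only. In such bulk RNA, fewer cells of a kind and less RNA per cell cannot be told apart.

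Arginine methyltransferases move methyl groups from S-adenosylmethionine to arginines of histones, splicing factors and other RNA-binding proteins. PRMT1, PRMT2, PRMT3, CARM1 and PRMT6 are type I enzymes, which make asymmetric dimethylarginine, PRMT5 and PRMT9 are type II enzymes, which make symmetric dimethylarginine, and PRMT7 stops at monomethylarginine. When methylated proteins are broken down, free methylarginines are released. Free asymmetric dimethylarginine and monomethylarginine inhibit nitric oxide synthases, and DDAH1 hydrolyses both to citrulline, whereas symmetric dimethylarginine is not its substrate.

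The target of the siRNAs checked the labels first. ALKBH5 had intensities of 2815, 3308 and 2361 on the siControl arrays, 112, 96.7 and 113 with siALKBH5#1, and 56.8, 30.0 and 34.8 with siALKBH5#3. The log2 fold change was -4.71 ± 0.21 (SE, n = 3) and -6.17 ± 0.21, with limma adjusted p = 6.49e-07 and 4.23e-08. The epithelial markers EPCAM, CDH1, KRT7, KRT8, KRT18 and KRT19 lay at the 92.6th to 99.9th percentile in siControl (rank among all clusters of an array), while the lung lineage markers NKX2-1, NAPSA and SFTPB were dim (7.61st to 39.9th). Of 4 immune, 4 endothelial and 5 fibroblast markers measured, 1 of each class lay above the 50th percentile, and PTPRC, CD3E and CD14 lay at the 30.8th to 41.9th. The summed intensity of the immune markers, most of it from CD68, was 3477 to 3782 in siControl, 5312 to 6718 with siALKBH5#1 and 4454 to 4807 with siALKBH5#3. That of the endothelial markers was 287 to 385, 199 to 230.04 and 236 to 264, and that of the 9 lung and epithelial markers was 397404 to 403522, 367373 to 370340 and 394349 to 400731. The part of these shifts in the results that follow was not tested.

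The 250 bases before annotated starts are shown for the 3 genes that the results turn on, taken from RefSeq (GRCh38.p14) and written 5′ to 3′ along the gene's strand. Capitals mark the GC box (GGGCGG, or CCGCCC on the opposite strand) and the CCAAT box (CCAAT, or ATTGG on the opposite strand). DDAH1 has 3 annotated windows, of which the most upstream and the most GC-rich are given. CARM1 has 2, of which the upstream one is given, and PRMT5 has 1.
DDAH1, chr1:85578201-85578450, minus strand: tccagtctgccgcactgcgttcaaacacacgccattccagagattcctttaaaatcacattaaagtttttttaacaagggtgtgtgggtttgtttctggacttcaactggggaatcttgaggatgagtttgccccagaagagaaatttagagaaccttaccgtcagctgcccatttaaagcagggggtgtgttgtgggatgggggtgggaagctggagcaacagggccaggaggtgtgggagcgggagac
DDAH1, chr1:85465160-85465409, minus strand: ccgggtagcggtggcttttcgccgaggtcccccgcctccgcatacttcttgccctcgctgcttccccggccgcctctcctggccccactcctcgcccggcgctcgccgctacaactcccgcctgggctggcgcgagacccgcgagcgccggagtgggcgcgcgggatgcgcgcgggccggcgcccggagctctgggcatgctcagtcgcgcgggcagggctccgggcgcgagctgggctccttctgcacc
PRMT5, chr14:22929377-22929626, minus strand: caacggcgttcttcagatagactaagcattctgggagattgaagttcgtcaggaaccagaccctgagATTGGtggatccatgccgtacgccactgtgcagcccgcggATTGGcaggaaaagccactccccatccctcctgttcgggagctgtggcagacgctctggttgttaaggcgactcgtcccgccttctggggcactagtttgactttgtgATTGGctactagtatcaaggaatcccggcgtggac
CARM1, chr19:10871303-10871552, plus strand: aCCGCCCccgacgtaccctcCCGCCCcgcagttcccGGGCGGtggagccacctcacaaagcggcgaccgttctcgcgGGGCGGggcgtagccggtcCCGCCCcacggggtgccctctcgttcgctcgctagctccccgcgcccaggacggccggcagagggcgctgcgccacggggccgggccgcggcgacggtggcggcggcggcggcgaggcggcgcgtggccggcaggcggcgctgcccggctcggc
None of the 3 DDAH1 windows held a GC box or a CCAAT box, and their GC content ran from 38.8% to 76.4%, against a median of 58% over 35116 such windows of all genes. The PRMT5 window held 3 CCAAT boxes, all on the opposite strand, 183, 143 and 35 bases before the start, and 2.93% of all windows held 3 or more. The CARM1 window shown held 5 GC boxes on both strands between 249 and 154 bases before the start, and 4.15% of all windows held 5 or more. Its other window (chr19:10872179-10872428, 70% GC) held 2 GC boxes, 120 and 79 bases before the start. At least 1 GC box was found in 42.6% of all windows and at least 1 CCAAT box in 32.0%. Both strands were also searched for CACGTG (6.34% of windows), TGACGTCA (1.65%), TATAAA (10.7%) and TGATGNAAT (0.888%), and none of the motifs contains another. In the DDAH1, PRMT5 and CARM1 windows, TATAAA was found once, in the DDAH1 window not shown, and the other 3 were not found. These matches describe letters and do not show binding.

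DDAH1 (TC0100014776.hg.1, GRCh38.p14 chromosome 1, 85318485 to 85578200) was the member with the widest range. Its intensity on siControl replicates 1 to 3 was 5219, 5332 and 4820, on siALKBH5#1 it was 921, 876 and 814, and on siALKBH5#3 it was 7032, 8258 and 7335. All siALKBH5#1 arrays lay far below the controls and all siALKBH5#3 arrays above them, so the 3 groups did not overlap. The means were 5124 ± 269 (SD, n = 3), 870 ± 53.8 and 7541 ± 639. DDAH1 was thus 5.89-fold lower with siALKBH5#1 and 1.47-fold higher with siALKBH5#3. On the log2 scale these changes were -2.56 ± 0.12 and 0.56 ± 0.12 (SE), and the siALKBH5#3 arrays stood 3.11 above the siALKBH5#1 arrays. Because the gene was picked for this pattern, no test is given for it.

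The place of DDAH1 among all clusters differed between the comparisons. With siALKBH5#1 only 2 of 21448 clusters had a lower log2 fold change. With siALKBH5#3 the change was modest, since 1416 clusters had a higher one. In siALKBH5#3 against siALKBH5#1, 6 clusters had a larger positive difference. The signal was bright in siControl (91.2nd to 91.9th percentile) and still at the 73.1st to 74.7th percentile with siALKBH5#1, so the lower values were not at the dim end of the scale. Clusters called lower with siALKBH5#1 and higher with siALKBH5#3 numbered 105, or 0.49% of all, those of the opposite kind 0.573%, and both calls use the same 3 siControl arrays.

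**Figure D1:**
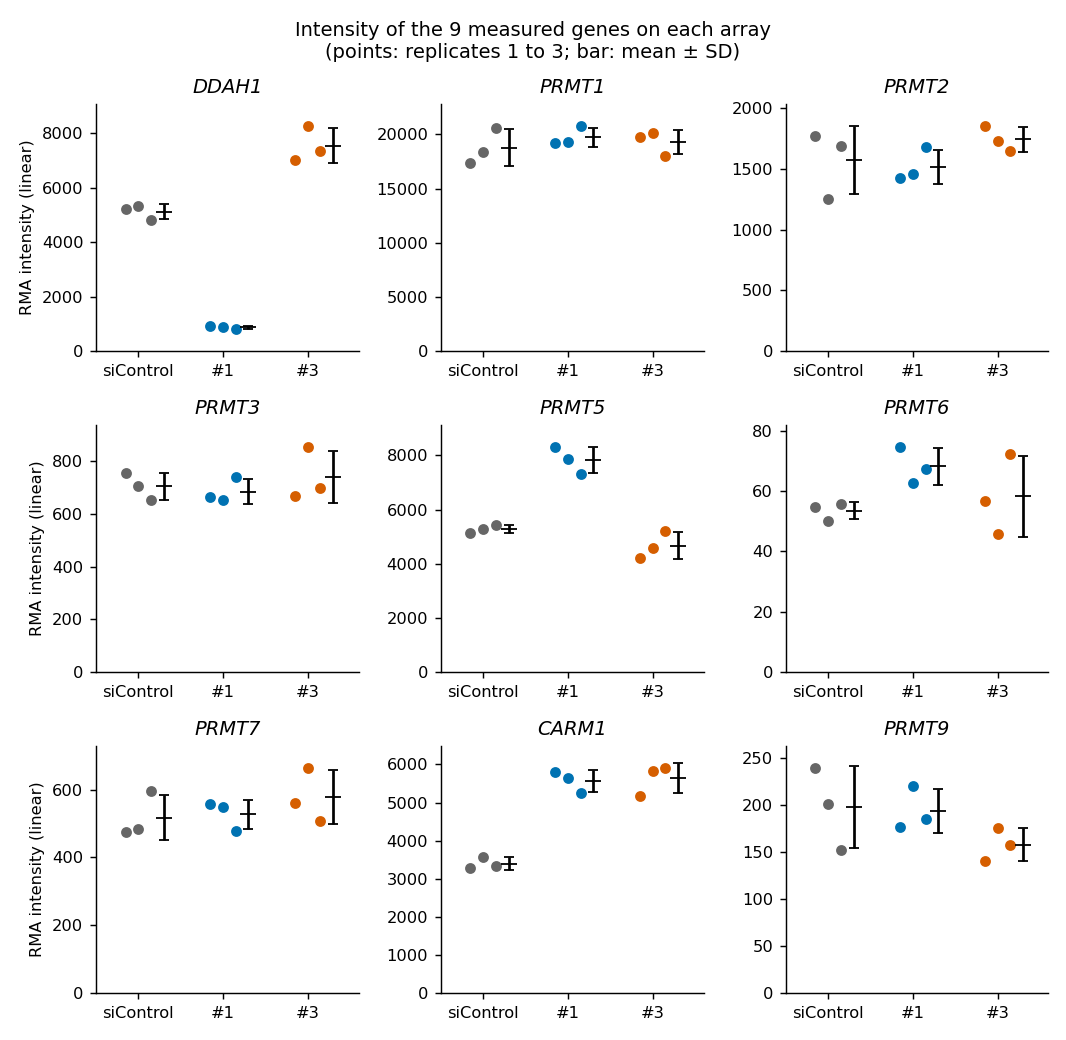
RMA intensity (linear, vertical axis from 0) of the 9 measured genes on each of the 3 siControl, 3 siALKBH5#1 and 3 siALKBH5#3 arrays, with the mean ± SD beside the points of each group. DDAH1 lies at 4820 to 5332 in siControl and at 814 to 921 with siALKBH5#1, PRMT5 is higher with siALKBH5#1 alone, and CARM1 is higher with both siRNAs.

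Among the type I enzymes, CARM1 was the one called in any comparison. CARM1 (TC1900007003.hg.1, chromosome 19, 10871553 to 10923075), also known as PRMT4, is a coactivator of nuclear receptors that methylates histone H3 and splicing factors. Its intensity was 3268, 3582 and 3337 in siControl, 5796, 5653 and 5244 with siALKBH5#1, and 5185, 5832 and 5907 with siALKBH5#3. Every array of either siRNA lay above every control array, while the siALKBH5#1 and siALKBH5#3 arrays overlapped. With siALKBH5#1 CARM1 rose 1.64-fold (limma adjusted p = 0.0025, 95% confidence interval 1.38 to 1.94). The rise with siALKBH5#3 was 1.66-fold (adjusted p = 0.0011, interval 1.40 to 1.97). The siRNAs differed by 0.02 ± 0.11 on the log2 scale, with an interval from -0.23 to 0.26 (adjusted p = 0.943). The calls against siControl held in each of the 19 alternatives, in which the log2 change ran from 0.65 to 0.75 with siALKBH5#1 and from 0.69 to 0.79 with siALKBH5#3.

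PRMT1, which makes most of the asymmetric dimethylarginine in mammalian cells, was bright on every array (97.1st to 97.7th percentile). It ranged from 17308 to 20626 in siControl, from 19230 to 20755 with siALKBH5#1 and from 17990 to 20124 with siALKBH5#3. The groups overlapped, and the intervals of the log2 change were narrow: -0.18 to 0.33 with siALKBH5#1 (adjusted p = 0.745) and -0.21 to 0.29 with siALKBH5#3 (adjusted p = 0.86).

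PRMT2, whose enzyme activity is weak, and PRMT3, which methylates the ribosomal protein RPS2, also overlapped between groups. PRMT2 had log2 changes of -0.04 ± 0.15 (SE, n = 3) and 0.16 ± 0.15, with a siControl replicate 2 (1255) below the other control arrays (1772 and 1691). PRMT3 had changes of -0.04 ± 0.13 and 0.06 ± 0.13. Neither passed the test.

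PRMT6, a nuclear enzyme that methylates histone H3 at a site that opposes the activating mark of promoters, was the dimmest member (39.1st to 46.1st percentile). Its intensity was 54.6, 50.2 and 55.6 in siControl, 74.6, 62.5 and 67.4 with siALKBH5#1, and 56.7, 45.7 and 72.3 with siALKBH5#3. The siALKBH5#1 arrays all lay above the controls, yet the log2 change of 0.35 ± 0.16 did not pass (adjusted p = 0.215), and 26.9% of all clusters had groups without overlap in that comparison. With siALKBH5#3 the arrays spread across both other groups (0.10 ± 0.16, adjusted p = 0.737).

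PRMT5 (TC1400008684.hg.1, chromosome 14, 22920529 to 22929376), the main source of symmetric dimethylarginine and a modifier of Sm proteins of the spliceosome, was called against siControl with siALKBH5#1 only. Its intensity was 5139, 5292 and 5416 in siControl, 8310, 7864 and 7329 with siALKBH5#1, and 4208, 4571 and 5199 with siALKBH5#3. The siALKBH5#1 arrays stood apart from all others, and the siALKBH5#3 arrays reached into the control range. The rise with siALKBH5#1 was 1.48-fold (adjusted p = 0.0128, 95% confidence interval 1.24 to 1.77). Without siALKBH5#1 replicate 1 that call was lost (log2 0.52, adjusted p = 0.052). With siALKBH5#3 the log2 change was -0.19 ± 0.12 (adjusted p = 0.331). The difference between the siRNAs was tested directly, and siALKBH5#3 gave 1.69-fold less PRMT5 (adjusted p = 0.000807, interval 1.41 to 2.02).

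PRMT9, the other type II enzyme, which methylates the splicing factor SF3B2, gave 239, 201 and 152 in siControl, 176, 220 and 185 with siALKBH5#1, and 140, 176 and 158 with siALKBH5#3. Only the arrays of the siRNAs were free of overlap, by a margin of 175.72 against 176.03. The log2 change was -0.01 ± 0.17 with siALKBH5#1 (adjusted p = 0.978) and -0.31 ± 0.17 with siALKBH5#3 (adjusted p = 0.26). PRMT7, the monomethylating enzyme, had changes of 0.03 ± 0.14 and 0.16 ± 0.14 and did not pass in any comparison.

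**Figure D2:**
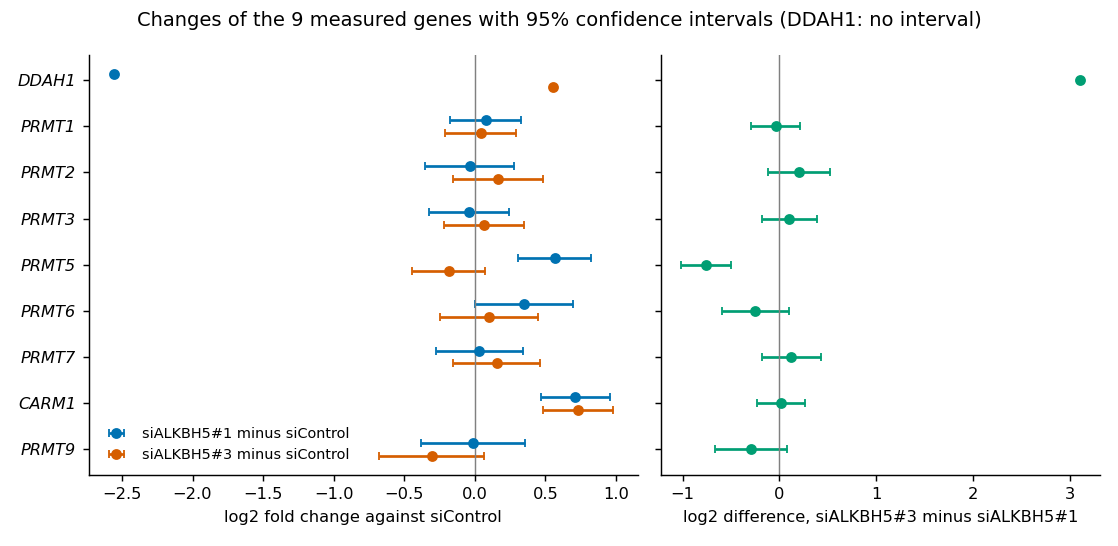
Log2 fold changes of the 9 measured genes (horizontal axes), with 95% confidence intervals for all but DDAH1, against siControl for each siRNA on the left and for siALKBH5#3 minus siALKBH5#1 on the right. DDAH1 lies on opposite sides of 0 with the siRNAs (-2.56 and 0.56), CARM1 lies at 0.71 and 0.73, and PRMT5 has the only interval clear of 0 between the siRNAs (-0.75).

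DDAH1 was left out of the counts of calls, since it chose the set. Of the other 8 measured genes, CARM1 and PRMT5 were called higher and none lower with siALKBH5#1, where 8.07% of all clusters were called (4.51% higher and 3.56% lower). With siALKBH5#3, CARM1 was called higher and none lower, against 15.8% of clusters (8.72% higher and 7.04% lower). Between the siRNAs PRMT5 was called lower with siALKBH5#3 and none higher, against 19.1% (9.55% in each direction). The set was chosen on these same contrasts, so nothing is read from the counts. The median log2 change of the 8 genes was 0.05, 0.08 and -0.01 in the 3 comparisons, beside -0.01, -0.02 and -0.00 over all clusters, and their median absolute change was 0.06, 0.16 and 0.16, beside 0.18, 0.20 and 0.19. CARM1 was the single measured member called with the same sign by both siRNAs, a pattern of 1.4% of clusters on the higher and 0.886% on the lower side, with shared controls. Apart from DDAH1, groups did not overlap for CARM1, PRMT5 and PRMT6 with siALKBH5#1 (26.9% of all clusters). The same held for CARM1 with siALKBH5#3 (32.7%) and for PRMT5 and PRMT9 between the siRNAs (36.1%).

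The neighbourhood of DDAH1 on chromosome 1 was examined next. CCN1, a secreted matrix protein also known as CYR61, starts 2561 bases above the annotated upper end of DDAH1, and it is the nearest measured gene on that side. Its intensity was 941, 858 and 1081 in siControl, 537, 468 and 568 with siALKBH5#1, and 2128, 2216 and 2161 with siALKBH5#3. As for DDAH1, the siALKBH5#1 arrays lay below and the siALKBH5#3 arrays above all controls. With siALKBH5#1 CCN1 fell 1.83-fold (adjusted p = 0.00146, 95% confidence interval 1.51 to 2.21). That call held in 18 of the 19 alternatives and was lost by the methods' t-test after Benjamini-Hochberg (adjusted p = 0.0782). With siALKBH5#3 it rose 2.27-fold (adjusted p = 9.89e-05, interval 1.87 to 2.75). The difference between the siRNAs was 2.05 ± 0.13 on the log2 scale (adjusted p = 8.84e-07).

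BCL10, an adaptor of NF-kB signalling, ends 41853 bases below DDAH1 and was the nearest measured gene on the other side. It had log2 changes of 0.14 ± 0.15 (adjusted p = 0.618) and 0.36 ± 0.15 (adjusted p = 0.135), and the second passed without siControl replicate 1 (0.54, adjusted p = 0.0164). Within 1 Mb on either side, a window chosen after the values of CCN1 were seen, 21 other genes were measured. With siALKBH5#1 CCN1 was the 1 called gene among them, beside 8.07% of all clusters, and with siALKBH5#3 4 were called, beside 15.8%. These were CCN1, ZNHIT6 (1.00 ± 0.17, adjusted p = 0.00176), a factor of box C/D snoRNP assembly, SSX2IP (0.48 ± 0.15, adjusted p = 0.0476), a centrosomal protein, and GNG5 (-0.67 ± 0.11, adjusted p = 0.00204), a G protein gamma subunit. The SSX2IP call was lost when any array but siControl replicate 2 was left out (0.0517 to 0.154). Of the 21 genes only CCN1 was called lower with siALKBH5#1 and higher with siALKBH5#3.

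**Figure D3:**
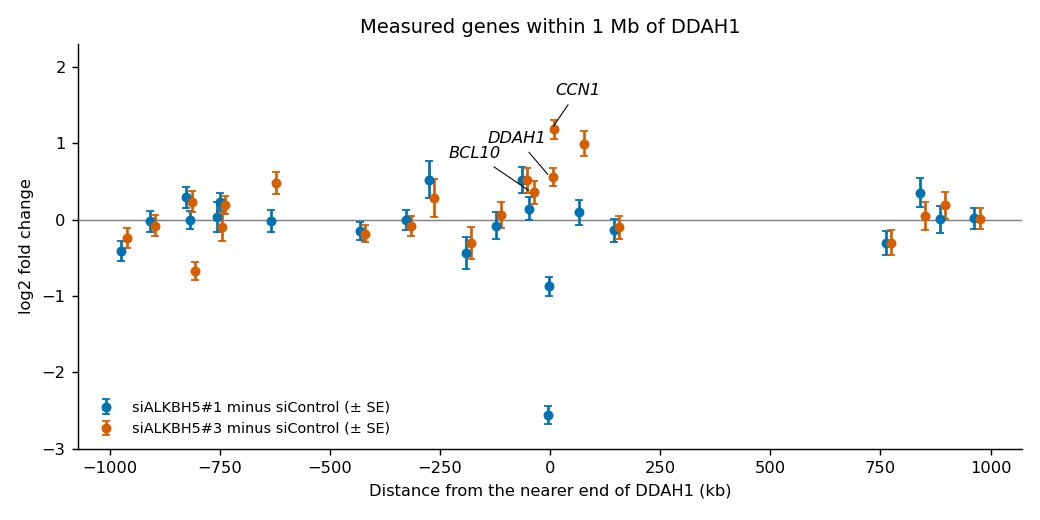
Log2 fold change (± SE, vertical axis) with siALKBH5#1 and siALKBH5#3 of DDAH1 and the 21 other measured genes within 1 Mb, against the distance in kb from the nearer end of DDAH1 (negative values are below the gene, and the points of the siRNAs are set slightly apart). DDAH1 and CCN1 sit at 0 and 2.561 kb with values of opposite sign for the siRNAs, while the remaining siALKBH5#1 values lie between -0.44 and 0.53.

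The genes whose pattern over the 9 arrays was most like that of DDAH1 were found by the root mean square difference of log2 values, each gene centred on its own siControl mean. They were TFPI2, a serine protease inhibitor (0.41), TNFRSF9, the receptor 4-1BB (0.42), PRKCH, a protein kinase C isoform (0.43), CD24, a surface sialoglycoprotein with near-identical copies in the genome (0.43), and RARRES1, a retinoid-responsive gene (0.48). All 5 were lower with siALKBH5#1, by -1.82 to -2.39 on the log2 scale. With siALKBH5#3 TFPI2 (1.17) and CD24 (0.71) had arrays wholly above the controls. The arrays of TNFRSF9 (0.34), PRKCH (-0.08) and RARRES1 (0.30) overlapped with them there. These genes were picked for their likeness, so no test is given.

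The wider pathway was described with 7 gene lists of 103 genes, of which 89 were measured by 90 clusters. In all, 8 of the 90 clusters (8.89%) were called with siALKBH5#1, 6 higher and 2 lower, beside 8.07% of all clusters. With siALKBH5#3 19 (21.1%) were called, 11 higher and 8 lower, beside 15.8%. Between the siRNAs 22 (24.4%) were called, 11 in each direction, beside 19.1%.

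Of 3 other arginine methyltransferases, NDUFAF7, a mitochondrial enzyme that methylates a complex I subunit, was called with siALKBH5#1 (0.63 ± 0.17, adjusted p = 0.0426). That call was lost when any of 7 arrays was left out (adjusted p 0.0566 to 0.146 without siALKBH5#1 replicate 1, 2 or 3, siALKBH5#3 replicate 3, or siControl replicate 1, 2 or 3). METTL23, which methylates histone H3, and the neuronal PRMT8, at the 3.90th percentile, were not called in any comparison. The METTL23 difference of -0.37 ± 0.12 between the siRNAs missed the threshold (adjusted p = 0.0591) but passed in 8 of the 19 alternatives. Of the 4 measured partners of PRMTs, none was called against siControl. WDR77 (MEP50), the obligate partner of PRMT5, had values of 0.30 ± 0.12 with siALKBH5#1 (adjusted p = 0.152) and -0.08 ± 0.12 with siALKBH5#3 (adjusted p = 0.691). The difference of -0.38 ± 0.12 between the siRNAs passed (adjusted p = 0.0406), but not without any 1 of the 6 siRNA arrays (0.0615 to 0.156). CLNS1A (pICln), which brings Sm proteins to PRMT5, had changes of 0.19 ± 0.19 and -0.11 ± 0.19 and did not pass.

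Of 20 measured PRMT substrates and coactivators, 0 passed with siALKBH5#1 by limma, with 2 at an unadjusted p under 0.05, and 1 rose and 4 fell with siALKBH5#3. CREBBP, a histone acetyltransferase that CARM1 methylates, rose by 1.15 ± 0.14 with siALKBH5#3 (adjusted p = 0.000187) and stood at -0.08 ± 0.14 with siALKBH5#1. SNRPD3, an Sm protein and PRMT5 substrate, fell with siALKBH5#3 (-0.82 ± 0.15, adjusted p = 0.00356). The RNA-binding proteins TAF15 (-0.54 ± 0.12, adjusted p = 0.00894) and EWSR1 (-0.51 ± 0.12, adjusted p = 0.0111), both PRMT1 substrates, fell too. The brightest substrates HNRNPA1 (-0.06 ± 0.11 and -0.00 ± 0.11) and FBL (0.27 ± 0.11 and 0.01 ± 0.11) did not pass.

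Of 9 readers of methylarginine and peptidylarginine deiminases, the enzymes that turn protein arginine into citrulline, 0 passed with siALKBH5#1 by limma, with 3 at an unadjusted p under 0.05, and 3 fell with siALKBH5#3. PADI3, a deiminase of hair and skin, had mean intensities of 303 in siControl, 419 with siALKBH5#1 and 79.3 with siALKBH5#3. Its log2 change was 0.46 ± 0.14 (adjusted p = 0.0638) and -1.95 ± 0.14 (adjusted p = 8.11e-06). The first passed with a pseudocount of 16 (0.0272), with dim clusters left out (0.0245) and without siALKBH5#3 replicate 2 (0.0386). TDRKH, a Tudor domain protein of the piRNA pathway, fell with siALKBH5#3 (-0.72 ± 0.17, adjusted p = 0.0116). PADI1 also fell (-0.56 ± 0.16, adjusted p = 0.0324), and its call was lost without siControl replicate 1 or 2 and without each of the 3 siALKBH5#3 arrays (0.0663 to 0.108). PADI2 went the other way, with -0.37 ± 0.17 (adjusted p = 0.218) and 0.46 ± 0.17 (adjusted p = 0.0908). Neither change passed, but its difference of 0.83 ± 0.17 between the siRNAs did (adjusted p = 0.00436). PADI4 (-0.44 ± 0.16) and PADI6 (-0.24 ± 0.17) were lower with siALKBH5#3 and not called.

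Of 17 genes of nitric oxide synthesis and signalling, 1 rose with siALKBH5#1, 2 rose with siALKBH5#3 and none fell. The nitric oxide synthases, which free methylarginines inhibit, were dim in siControl, at the 13.7th (NOS1), 27.0th (NOS2) and 8.46th (NOS3) percentile. NOS3 was called with siALKBH5#3 at that level (0.49 ± 0.15, adjusted p = 0.0428, from 13.4 to 18.8). With a pseudocount of 16 added to the intensities the change was 0.24 and did not pass (adjusted p = 0.0885). The call was also lost without siControl replicate 1 or 2, without siALKBH5#1 replicate 2 and without each of the 3 siALKBH5#3 arrays (0.0596 to 0.135). SPR, sepiapterin reductase, which makes the synthase cofactor tetrahydrobiopterin, rose with both siRNAs (0.75 ± 0.13, adjusted p = 0.00424, and 0.72 ± 0.13, adjusted p = 0.00285). CAV1, a bright inhibitor of NOS3 protein, had changes of -0.09 ± 0.11 and -0.13 ± 0.11 and did not pass.

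The S-adenosylmethionine cycle supplies the methyl groups. Its list, which also holds enzymes of transsulfuration, had 18 measured genes, read by 19 clusters. With siALKBH5#1 2 rose and 1 fell, and with siALKBH5#3 4 rose and 1 fell. CBS, cystathionine beta-synthase, was measured by 2 clusters, which the array may share with a near-identical copy. They rose by 1.15 ± 0.13 and 1.24 ± 0.12 with siALKBH5#3 (adjusted p = 0.000175 and 6.07e-05). With siALKBH5#1 they had changes of 0.39 ± 0.13 (adjusted p = 0.101) and 0.58 ± 0.12 (adjusted p = 0.0143). The first passed without siALKBH5#1 replicate 2 (0.0453), and the second did not pass without siALKBH5#1 replicate 3 (0.0607) or siControl replicate 2 (0.0514).

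In the same list CTH, which follows CBS in transsulfuration, rose with siALKBH5#1 (0.53 ± 0.12, adjusted p = 0.0169, and 0.0677 without siALKBH5#1 replicate 2). MTRR, which reactivates methionine synthase, rose with siALKBH5#3 (0.79 ± 0.16, adjusted p = 0.00481). BHMT2, a homocysteine methyltransferase, fell with both (-0.64 ± 0.16, adjusted p = 0.0303, and -0.63 ± 0.16, adjusted p = 0.019). Its first call was lost when siControl replicate 1 or 2 or siALKBH5#1 replicate 2 or 3 was left out (0.0532 to 0.111), and its second without siALKBH5#3 replicate 2 (0.0842) or siControl replicate 2 (0.0697).

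Arginine supply and use gave the calls of largest size with siALKBH5#1 in these lists. Of 18 measured genes, 2 rose and 1 fell with siALKBH5#1, and 4 rose and none fell with siALKBH5#3. ARG2, the mitochondrial arginase, had mean intensities of 69.4, 197 and 97.0 in siControl, siALKBH5#1 and siALKBH5#3. It rose 2.83-fold (adjusted p = 4.42e-05) and 1.40-fold (adjusted p = 0.0281), and the second call was lost without siControl replicate 2 or 3 and without each of the 3 siALKBH5#3 arrays (0.0566 to 0.0884). ASS1, argininosuccinate synthase, which starts the return of citrulline to arginine, fell with siALKBH5#1 (-0.96 ± 0.12, adjusted p = 0.000419) and stood at 0.16 ± 0.12 with siALKBH5#3 (adjusted p = 0.409). The difference of 1.12 ± 0.12 between the siRNAs passed (adjusted p = 4.24e-05).

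The transcript of SLC7A1, which encodes the arginine transporter CAT-1, rose with both siRNAs (0.80 ± 0.14, adjusted p = 0.0052, and 1.43 ± 0.14, adjusted p = 6.07e-05). SLC3A2, the heavy chain of several amino acid transporters, rose with siALKBH5#3 (0.69 ± 0.11, adjusted p = 0.00109). GAMT, the last enzyme of creatine synthesis, was called with siALKBH5#3 (0.69 ± 0.20, adjusted p = 0.0378), a call that ended when siALKBH5#3 replicate 1, siALKBH5#3 replicate 3, siControl replicate 1 or siControl replicate 3 was left out (0.0849 to 0.139).

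**Figure D4:**
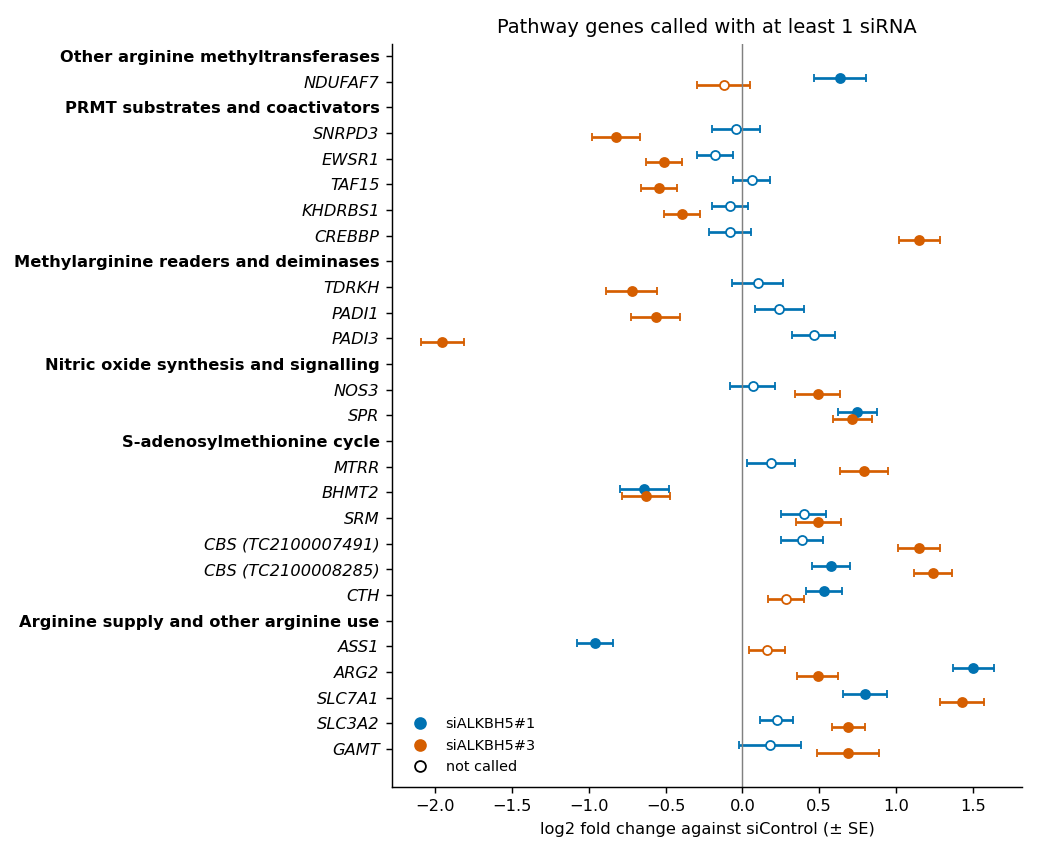
Log2 fold change against siControl (± SE, horizontal axis) of the pathway genes called with at least 1 siRNA, by list, with filled points where limma called the change. ARG2 is highest with siALKBH5#1 (2.83-fold), ASS1 is low with siALKBH5#1 alone (-0.96), and PADI3 is lowest with siALKBH5#3 (-1.95).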

How the data were processed

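Expression was measured on 9 Clariom S arrays of PC9 cells. The deposited values are linear intensity values, 1 per transcript cluster and array. RMA, Affymetrix Expression Console and hg38 are listed in the submitters' processing notes, while the methods name a company's analysis tool for normalization, so which step set the final scale is open. RMA pulls arrays towards a common distribution, which hides a change in total RNA per cell and compresses folds of dim clusters. The array medians lay between 102.67 and 105.175.

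Of the deposited rows, 2903 control probe sets were left out, and the log2 intensity of the other 21448 was fitted with no filter and no pseudocount. Of these clusters, 17709 had 1 gene symbol and 3739 had none. Lists and promoters were matched by symbol and coordinates by Entrez ID (RefSeq GRCh38.p14). limma 3.58.1 in R 4.3.3 fitted 1 mean per group to all arrays (6 residual and 5.79 prior degrees of freedom), and two-sided moderated tests were adjusted over all clusters by Benjamini-Hochberg and called under 0.05. Both comparisons with siControl share its 3 arrays. The number of arrays limits the precision. The fit was tested on simulated data.

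The members and gene lists were chosen with earlier results of these data known. Named genes were all members, ALKBH5, up to 4 called genes of each list and siRNA comparison by size (or the 2 brightest where fewer than 2 were called), the 5 most like DDAH1 and its nearest measured gene on each side. SSX2IP, ZNHIT6 and GNG5, the other genes within 1 Mb of DDAH1 called against siControl, were named after their values were seen. So were PADI2, PADI4 and PADI6, which are not in the counts of alternatives. Alternatives were quantile normalization, median centring, a pseudocount of 16, a filter on dim clusters, array weights, an intensity trend with robust prior, fits on both groups alone, the replicate number as a block, the methods' t-test (fold over 1.5 and p under 0.01) and leaving out each array.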

Additional observations from a re-analysis of the deposited data

Results flagged for a closer look

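Several results differed between the siRNAs in siALKBH5#3 minus siALKBH5#1 (log2). DDAH1 (3.11), TFPI2 (3.57) and CD24 (2.55) had every siALKBH5#1 array below and every siALKBH5#3 array above the controls. They were chosen for that pattern or for likeness to it, so the difference was not tested.

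By limma the difference itself passed for PRMT5 (-0.75, adjusted p = 0.000807), CCN1 (2.05, adjusted p = 8.84e-07), the genes near DDAH1 ZNHIT6 (0.90, adjusted p = 0.00221), GNG5 (-0.67, adjusted p = 0.00146) and SSX2IP (0.50, adjusted p = 0.0341, lost without siALKBH5#1 replicate 2 or 3 or siALKBH5#3 replicate 1 or 3, 0.0871 to 0.128) and the siRNA target ALKBH5 (-1.45, adjusted p = 0.000487). Among the named genes of the arginine list it passed for ASS1 (1.12, adjusted p = 4.24e-05), ARG2 (-1.01, adjusted p = 0.000246), SLC7A1 (0.63, adjusted p = 0.00751) and SLC3A2 (0.47, adjusted p = 0.00818).

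It also passed for the named list genes PADI3 (-2.42, adjusted p = 6.03e-07), CREBBP (1.23, adjusted p = 6.27e-05), TDRKH (-0.82, adjusted p = 0.00399), PADI1 (-0.80, adjusted p = 0.00364), SNRPD3 (-0.78, adjusted p = 0.00347), NDUFAF7 (-0.76, adjusted p = 0.00811), TAF15 (-0.60, adjusted p = 0.0035) and WDR77 (-0.38, adjusted p = 0.0406). The clusters of CBS gave 0.76 and 0.66 (adjusted p = 0.00175 and 0.00238). Of the other deiminases, PADI2 gave 0.83 (adjusted p = 0.00436) and PADI4 -0.50 (adjusted p = 0.0485). MTRR gave 0.61 (adjusted p = 0.0164), which was lost without siALKBH5#1 replicate 2 (0.0661) or siALKBH5#3 replicate 2 (0.0753) or 3 (0.0542).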

How the results depend on the processing

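DDAH1 kept its direction in all 57 combinations of comparison and alternative, and 451 of 453 for the other 8 measured members kept their side of the threshold. Values near 0 that did not pass changed sign in 24 of the 453 (PRMT1 with siALKBH5#1 was -0.01 under quantile normalization). The other 2 were the PRMT5 rise with siALKBH5#1, lost without siALKBH5#1 replicate 1 (0.052) and under the methods' t-test, whose fold limit of 1.5 it missed. For the other named genes, 118 of 2217 combinations lost a call, 25 gained one and no called change turned its sign. SSX2IP with siALKBH5#3 also missed the threshold under quantile normalization (0.0922), array weights (0.0808) and the fit on both groups alone (0.0761). Its alternatives and those of ZNHIT6 and GNG5 were added after the data were seen.

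With siALKBH5#1 the clusters called numbered 1731, but 2604 with the intensity trend and robust prior, 703 by the methods' t-test, 324 by that test after Benjamini-Hochberg, and 1037 to 1723 when 1 array was left out (1138, 1037 and 1051 without siALKBH5#1 replicate 1, 2 and 3). With siALKBH5#3 they numbered 3381, but 1414 and 1302 by those t-tests and 2320 to 3235 without 1 array, and between the siRNAs 4097, but 2028 and 2672, and 3110 to 4284. The cause of these shifts was not tested. For the calls of members DDAH1 was again left out. CARM1 kept its calls against siControl in each alternative, and the PRMT5 call between the siRNAs also held in each. The PRMT5 call with siALKBH5#1 was lost in the 2 settings given above, and no member gained a call. The 1.47-fold rise of DDAH1 with siALKBH5#3 lies under the fold limit of 1.5 of the methods' t-test. The median change of the 9 members with siALKBH5#1 was -0.0214 under quantile normalization. When 1 array was left out it was 0.00381 to 0.14 with siALKBH5#1, 0.05 to 0.13 with siALKBH5#3 and -0.0065 to 0.0783 between the siRNAs.

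The labels do not say whether arrays of the same replicate number were paired. Their deviations correlated from -0.147 to 0.123, with 1 of 9 pairs above 0.1, and these values cannot settle it. The main fit used no pairing. With the replicate block 1430, 2994 and 3774 clusters were called. No member's call changed with it, while calls were lost for BHMT2 with siALKBH5#1 (0.0581), for NOS3 (0.0669), ARG2 (0.055) and GAMT (0.0625) with siALKBH5#3, for WDR77 between the siRNAs (0.0587) and for SSX2IP with siALKBH5#3 (0.0743) and between the siRNAs (0.0571).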
